A study of Mus musculus with 6 samples.

Results

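Growth arrest and entry into the cell cycle were followed through 10 genes in mouse liver after a long and a short fast. They were taken by name, as the 2 cyclin-dependent kinase inhibitors Cdkn1a and Cdkn1b, the D-type cyclins Ccnd1, Ccnd2 and Ccnd3, the transcription factor gene Myc, the stress genes Gadd45a, Gadd45b and Gadd45g, and the antiproliferative gene Btg2. Each name matched 1 of the 55471 Ensembl identifiers in the count tables, and all 10 were among the 13812 genes with enough counts to test. Liver RNA came from 6 male wild-type (WT) C57BL/6J mice, 3 fasted for 16 h and 3 fasted for 4 h, with 1 sequencing library counted as 1 mouse. The labels name no genetic change or drug for either group, no fed group was analysed here, and the sources used here give neither the age of the mice nor the clock time at which livers were taken.

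In a resting cell the retinoblastoma protein holds the E2F transcription factors in check. D-type cyclins bind the kinases CDK4 and CDK6, which phosphorylate that protein and so open the way to DNA synthesis, while the products of Cdkn1a and Cdkn1b bind and inhibit cyclin-kinase complexes. Most hepatocytes of the adult liver are out of the cycle and can re-enter it after tissue loss, when Ccnd1 and Myc are known to be induced.

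The libraries held between 15173653 and 26572532 counts assigned to genes. The livers expressed all 8 matched hepatocyte markers of 9 listed, led by Alb, which took 5.30% to 6.97% of the counts of a library. Replicate 3 of the 4 h fast carried lung transcripts. The 10 lung epithelial markers summed to 190.2 CPM (counts scaled to library size) there, against 5.86 to 9.15 CPM in the other 5 libraries, and the 10 neutrophil markers to 15.9 CPM against 2.40 to 5.84 CPM. Of the 10 genes and the listed genes named below as higher or lower, some were no longer called when that library was left out. These were Cdkn1a, Mlxip, Plk2, Irs2, Fkbp5, Egr1, Klf6, Timd4 and Ahsg. Genes named below only for their correlation with a called gene were not followed in this way.

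After 16 h, 2 of the 10 genes were higher than after 4 h, 2 were lower and 6 did not pass the test. Cdkn1a and Gadd45b rose, and Ccnd1 and Gadd45a fell. A gene counts as higher or lower here at a Benjamini-Hochberg adjusted p under 0.05 in edgeR's quasi-likelihood test, adjusted over all 13812 genes. The same test called 18.7% of all genes, 9.18% higher and 9.51% lower. The values of the 2 groups did not overlap for 6 of the 10 genes, the 4 named and also Ccnd2 and Ccnd3, and for 39.4% of all genes. With 10 hand-picked genes these counts describe the set and no more. Changes below are log2 fold changes of 16 h over 4 h with their SE from 3 livers per group, and levels are CPM scaled by TMM factors, as mean ± SD (n = 3 per group).

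**Figure D1:**
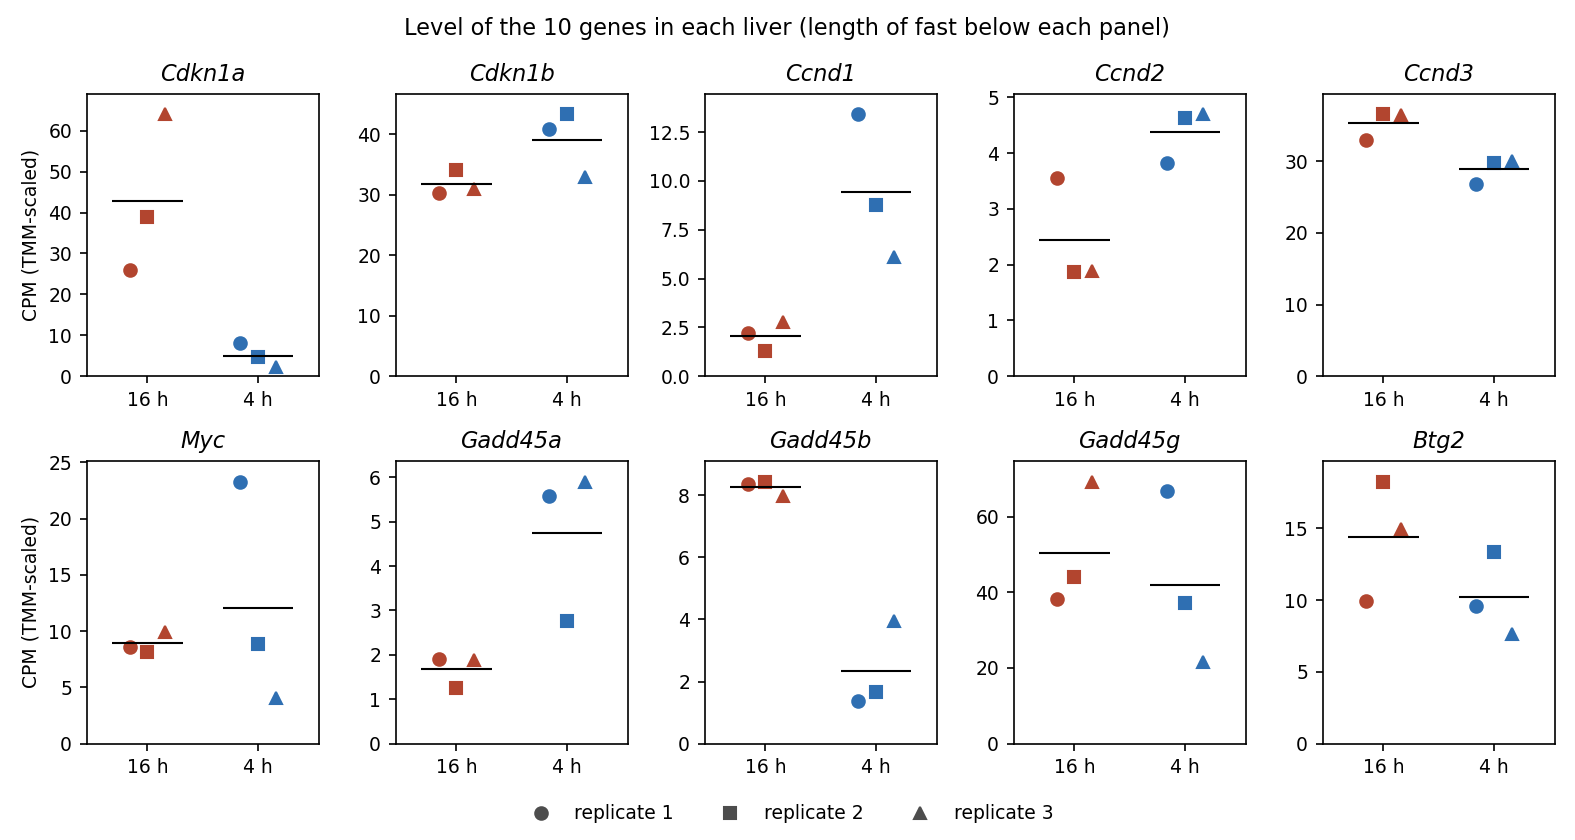
Level of each gene in CPM (vertical axis, from 0) in the 3 livers after 16 h and the 3 after 4 h; symbols mark the replicate number and lines the group mean. Cdkn1a and Gadd45b lie higher in all 3 livers after 16 h, Ccnd1 and Gadd45a lower, and Myc reaches 23.3 CPM in a single liver after 4 h.

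Among the inhibitors, Cdkn1a had the largest change of the set. The gene (GRCm38 chromosome 17, 29090976 to 29100727, plus strand) encodes the kinase inhibitor p21 that p53 induces after DNA damage, and it is also under other control in liver. It stood at 25.99, 38.8 and 64.0 CPM in replicates 1, 2 and 3 after 16 h, against 8.05, 4.70 and 2.24 CPM in those after 4 h. The groups did not overlap, and the lowest 16 h liver was above the highest 4 h liver. The means were 42.9 ± 19.3 CPM after 16 h, against 4.996 ± 2.91 CPM after 4 h, an 8.60-fold difference (3.06 ± 0.56, 95% interval 1.64 to 4.49, edgeR adjusted p = 0.0206). Cdkn1a ranked 13 from the top of all 13812 changes. The spread between livers was wide in both groups, with a coefficient of variation of 45.0% after 16 h and 58.3% after 4 h. Without 4 h replicate 2 or 3, Cdkn1a no longer passed (3.03, edgeR adjusted p = 0.105, and 2.72, edgeR adjusted p = 0.0677), although its groups did not overlap in either case. Leaving out any other liver kept the call, and the adjusted p over all 6 cases lay between 0.0141 and 0.105. An unnamed gene model on the opposite strand, AC167363.2, shares 7.68% of the exon bases of Cdkn1a and had 56 counts over the 16 h livers and 3 counts over the 4 h livers.

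Cdkn1b (chromosome 6, 134920401 to 134925513, plus strand), whose product binds cyclin E and cyclin D complexes in resting cells, was at 30.3, 34.1 and 31.1 CPM after 16 h and at 40.9, 43.3 and 33.0 CPM after 4 h. The groups overlapped through 4 h replicate 3, and the change did not pass (-0.30 ± 0.12, 95% interval -0.56 to -0.028, edgeR adjusted p = 0.114). Without that liver it passed (-0.39, edgeR adjusted p = 0.00987, against 0.00987 to 0.347 over the 6 livers left out in turn). Cdkn1c, the third gene of this inhibitor family, was low at 0.773 ± 0.253 CPM after 16 h, against 0.945 ± 0.235 CPM after 4 h, with 30.7% of its exon bases under another gene.

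Within the RNA of the 3 inhibitor genes, the shares of Cdkn1a and Cdkn1b did not overlap between the groups. These shares restate the levels given above and were added after values had been seen. On the scale of reads per kilobase of exon, Cdkn1a made up 50.7%, 58.6% and 71.3% of the 3 inhibitor genes together after 16 h, against 19.5%, 11.7% and 7.46% after 4 h. Cdkn1b took 46.2%, 40.2% and 27.0% after 16 h and 77.4%, 84.4% and 85.6% after 4 h. In every liver after 16 h Cdkn1a was thus the most abundant of the 3 per length, and in every liver after 4 h it was Cdkn1b. In counts not scaled by length, Cdkn1a had 0.857, 1.14 and 2.06 for each count of Cdkn1b after 16 h. The order in 16 h replicate 1 therefore rests on the scaling by length. With 3 livers per group an exact 2-sided permutation test cannot go below p = 0.1, which both shares reached, or 0.18 when adjusted over the 9 shares of 3 families.

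The RefSeq promoter table of GRCm38.p6 had entries for 7 of the 10 genes, with Ccnd1, Ccnd2 and Myc not among them. Cdkn1a has 2 start sites there, and the 250 bases before each are shown because this gene had the largest change. The second lies inside the gene as GENCODE M21 draws it. Capitals mark the p53 half-site in the first window and the GC box GGGCGG in the second.
Cdkn1a first start, chr17:29090729-29090978, plus strand: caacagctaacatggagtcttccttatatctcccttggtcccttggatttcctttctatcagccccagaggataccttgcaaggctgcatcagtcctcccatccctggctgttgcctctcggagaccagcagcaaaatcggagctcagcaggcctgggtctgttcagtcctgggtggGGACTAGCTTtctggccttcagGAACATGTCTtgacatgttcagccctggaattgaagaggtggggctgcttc
Cdkn1a second start, chr17:29093519-29093768, plus strand: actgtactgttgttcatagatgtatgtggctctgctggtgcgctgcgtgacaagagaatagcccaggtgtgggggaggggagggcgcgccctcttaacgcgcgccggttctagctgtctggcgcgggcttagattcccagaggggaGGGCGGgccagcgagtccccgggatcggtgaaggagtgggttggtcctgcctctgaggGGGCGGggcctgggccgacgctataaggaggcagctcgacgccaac
The first window held 2 matches to the p53 half-site, at -73 and -51 from the start, a motif found in 7.13% of all 32851 windows of this length. The second held the GC box at -104 and -46, against 32.7% of all windows. Both strands were searched for these motifs and for the TATA box TATAAA, the CCAAT box, the E-box CACGTG, the cAMP response element TGACGTCA, the forkhead site TGTTTAC and the palindromic glucocorticoid response element. None of these other 6 was found in either Cdkn1a window. The p53 half-site was added to the search after the windows had been read, and a match describes letters, not binding.

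The D-type cyclins did not move as a group. Ccnd1 (chromosome 7, 144929931 to 144939925, minus strand), the D-type cyclin most tied to hepatocyte proliferation, had 2.22, 1.26 and 2.76 CPM after 16 h, against 13.4, 8.75 and 6.10 CPM after 4 h. These values rest on 50, 21 and 67 counts after 16 h and on 365, 136 and 117 counts after 4 h. All livers after 16 h lay below all livers after 4 h. The mean was 2.08 ± 0.76 CPM after 16 h, against 9.42 ± 3.70 CPM after 4 h, 4.53-fold lower after the longer fast (-2.16 ± 0.33, 95% interval -2.89 to -1.42, edgeR adjusted p = 0.00183). Ccnd1 ranked 63 from the bottom of all 13812 changes, and it passed with each liver left out in turn (-2.41 to -1.78, edgeR adjusted p at most 0.00822). LTO1, a protein-coding gene on the opposite strand, shares 23.4% of the exon bases of Ccnd1. Reads from that stretch cannot be told apart without a stated strand setting, so the level of Ccnd1 is uncertain. LTO1 had 689 counts after 16 h and 820 counts after 4 h, each summed over 3 livers.

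Ccnd2 (chromosome 6, 127125162 to 127152193, minus strand) was at 3.55, 1.87 and 1.89 CPM after 16 h and at 3.82, 4.63 and 4.69 CPM after 4 h. Its groups did not overlap, and the gap between 16 h replicate 1 and 4 h replicate 1 was small. The change of -0.83 ± 0.27 fell just short of the threshold (95% interval -1.41 to -0.24, edgeR adjusted p = 0.0502). It passed with DESeq2 (adjusted p = 0.0457), with limma voom (0.0434) and without 16 h replicate 1 (-1.20, edgeR adjusted p = 0.0114). Over the 6 livers left out in turn the edgeR adjusted p of Ccnd2 lay between 0.0114 and 0.185. Ccnd3 (chromosome 17, 47505051 to 47599691, plus strand) had the smallest relative spread of the 3 cyclins, with 32.9, 36.5 and 36.5 CPM after 16 h, against 26.8, 29.8 and 30.04 CPM after 4 h. Each liver after 16 h was above each liver after 4 h, by little, and the change did not pass (0.29 ± 0.11, 95% interval 0.058 to 0.52, edgeR adjusted p = 0.0786). Without 4 h replicate 3 it passed (0.33, edgeR adjusted p = 0.0301, against 0.0301 to 0.220 over the 6 livers left out in turn).

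Per kilobase of exon, Ccnd3 was the leading D-type cyclin in both groups, and its lead was wider after 16 h. It took 81.5%, 89.9% and 84.1% of the reads per kilobase of the 3 cyclins after 16 h, against 48.4%, 59.1% and 65.6% after 4 h. Ccnd1 took 10.3%, 5.80% and 11.8% after 16 h, against 45.1%, 32.3% and 24.8% after 4 h. Both shares were fully separated between the groups, which restates the separation of Ccnd1 and Ccnd3 themselves. For each share the exact 2-sided permutation test gave p = 0.1, the smallest it can give, or 0.18 when adjusted over the 9 shares. Ccnd2 held at most 9.56% in any liver. The sum of the 3 cyclins was 4.73 ± 0.19 CPM per kilobase after 16 h and 5.76 ± 0.55 CPM per kilobase after 4 h, with no overlap between the groups.

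**Figure D2:**
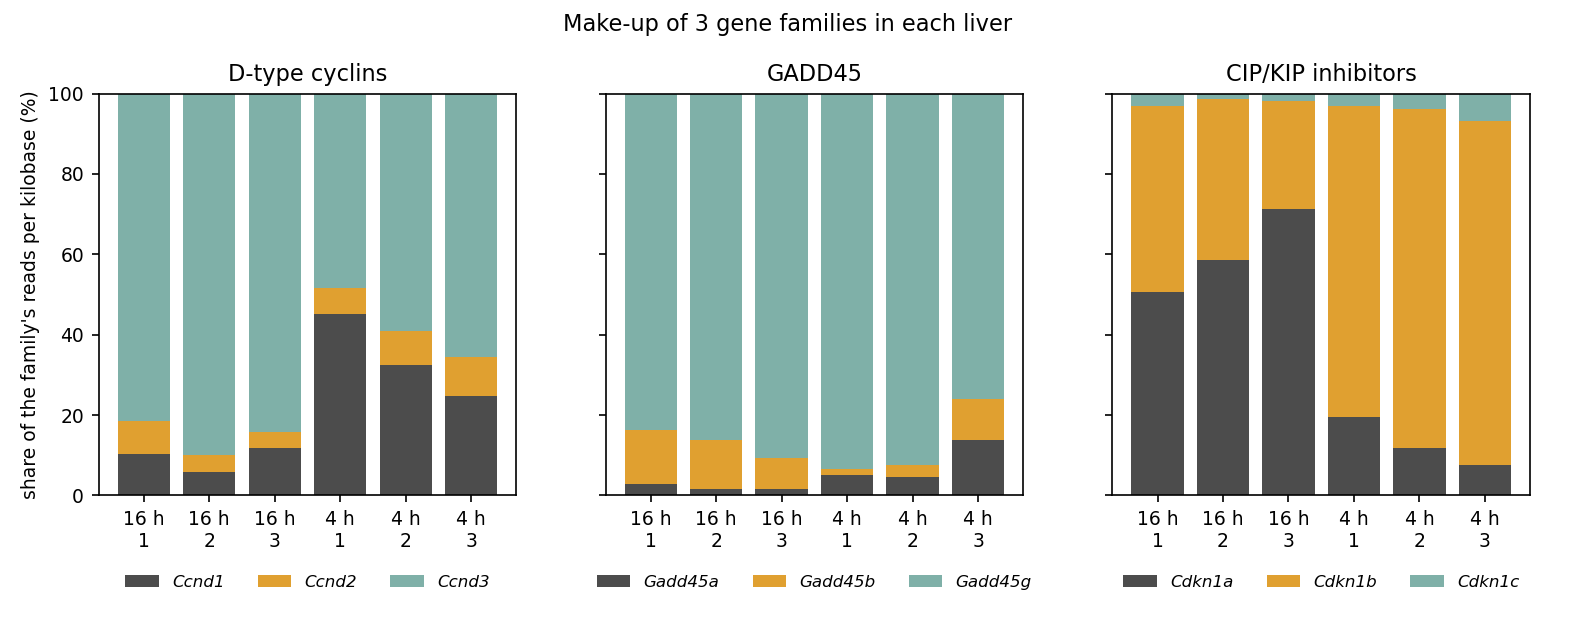
Share of each gene in the reads per kilobase of its family (vertical axis, percent) in each of the 6 livers, for the D-type cyclins, the GADD45 genes and the CIP/KIP inhibitors. Ccnd1 takes 5.80% to 11.8% of the D-type cyclins after 16 h and 24.8% to 45.1% after 4 h, and Cdkn1a takes 50.7% to 71.3% of the inhibitors after 16 h and 7.46% to 19.5% after 4 h.

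Taken as a ratio within each library, which no scaling between libraries can move, Cdkn1a had 11.7, 30.7 and 23.2 counts for each count of Ccnd1 in the livers after 16 h, against 0.60, 0.537 and 0.368 in those after 4 h. Counts of Ccnd1 exceeded those of Cdkn1a in all 3 livers after 4 h, and the reverse held in all 3 after 16 h. The ratio restates the 2 changes given above. An exact 2-sided permutation test on its log2 values gave p = 0.1, the smallest possible with 3 livers per group.

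The GADD45 genes encode small acidic proteins that bind the replication clamp PCNA and the stress kinase MAP3K4, and the 3 genes went separate ways. Gadd45b (chromosome 10, 80930073 to 80932204, plus strand) was at 8.35, 8.43 and 7.98 CPM after 16 h, against 1.36, 1.67 and 3.96 CPM after 4 h. The 16 h livers were nearly equal, with a coefficient of variation of 2.91%, and all were above the 4 h livers. The mean was 8.25 ± 0.24 CPM after 16 h, against 2.33 ± 1.42 CPM after 4 h, 3.54-fold higher after the longer fast (1.84 ± 0.33, 95% interval 1.11 to 2.56, edgeR adjusted p = 0.00389). The highest 4 h value belongs to replicate 3, the library with lung and neutrophil transcripts. Without that liver the change was 2.48 (edgeR adjusted p = 1.02e-05), and over the 6 livers left out in turn it stayed called, at 1.54 to 2.48 (edgeR adjusted p at most 0.0153).

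Gadd45a (chromosome 6, 67035096 to 67037457, minus strand), a p53 target in many cells, was at 1.91, 1.26 and 1.89 CPM after 16 h, against 5.58, 2.77 and 5.89 CPM after 4 h. These are 43, 21 and 46 counts after 16 h and 152, 43 and 113 counts after 4 h. All livers after 16 h lay below all after 4 h, replicate 2 of the 4 h fast being the closest to them. The mean was 1.69 ± 0.37 CPM after 16 h, against 4.75 ± 1.72 CPM after 4 h, 2.81-fold lower after the longer fast (-1.49 ± 0.30, 95% interval -2.14 to -0.83, edgeR adjusted p = 0.00578). The call stayed with each liver left out in turn (-1.72 to -1.31, edgeR adjusted p at most 0.0333). A noncoding gene on the opposite strand, E230016M11Rik, shares 19.1% of the exon bases of Gadd45a, so its level is uncertain in the same way as that of Ccnd1. That gene had 67 counts over the 16 h livers and 169 counts over the 4 h livers.

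Within a library, Gadd45b had 4.37, 6.67 and 4.22 counts for each count of Gadd45a after 16 h, against 0.243, 0.605 and 0.673 after 4 h, so that the order of these 2 genes was opposite in the 2 groups. Their promoter windows are set side by side for this reason, with 250 bases before the RefSeq start of each. Capitals mark matches to the motifs named above.
Gadd45b, chr10:80929841-80930090, plus strand: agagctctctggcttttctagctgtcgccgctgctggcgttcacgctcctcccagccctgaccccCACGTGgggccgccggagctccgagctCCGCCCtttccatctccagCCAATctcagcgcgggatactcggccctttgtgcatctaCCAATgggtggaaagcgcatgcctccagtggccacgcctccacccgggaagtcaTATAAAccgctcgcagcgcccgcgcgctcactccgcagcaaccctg
Gadd45a, chr6:67037408-67037657, minus strand: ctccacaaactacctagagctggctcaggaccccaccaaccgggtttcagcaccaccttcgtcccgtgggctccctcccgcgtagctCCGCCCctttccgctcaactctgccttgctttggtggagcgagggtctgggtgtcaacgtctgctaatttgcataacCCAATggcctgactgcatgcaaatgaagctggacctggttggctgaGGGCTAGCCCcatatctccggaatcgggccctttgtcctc
Both windows held CCAAT and the GC box, seen in 33.8% and 32.7% of all windows. The Gadd45b window also held TATAAA at -46 from the start (12.4% of all windows) and the E-box CACGTG at -185 (6.02%). The Gadd45a window lacked those 2 and held a p53 half-site at -40 (7.13%). Neither held the glucocorticoid response element, the forkhead site or the cAMP response element.

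Gadd45g (chromosome 13, 51846678 to 51848468, plus strand) was by far the most abundant of the family, with 38.2, 44.1 and 69.2 CPM after 16 h, against 66.8, 37.1 and 21.7 CPM after 4 h. The groups overlapped across most of their range (0.26 ± 0.47, 95% interval -0.92 to 1.45, edgeR adjusted p = 0.741). The sign itself depended on single livers, since without 16 h replicate 3 the change was -0.030 and without 4 h replicate 3 it was -0.038, and without 4 h replicate 1 it was 0.80. Gadd45g supplied 83.7%, 86.2% and 90.6% of the reads per kilobase of the family after 16 h and 93.4%, 92.4% and 76.0% after 4 h. Gadd45a and Gadd45b, which moved in opposite directions, each held at most 13.7% of the family in any liver.

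Myc (chromosome 15, 61985391 to 61990374, plus strand), which encodes a transcription factor that drives growth and ribosome production, was at 8.62, 8.19 and 9.95 CPM after 16 h and at 23.3, 8.88 and 4.07 CPM after 4 h. The 3 livers after 16 h were close together and lay inside the range of the 4 h livers. The change did not pass (-0.46 ± 0.63, edgeR adjusted p = 0.661), and its 95% interval ran from -2.07 to 1.15. A single liver decides its sign, as the change was 0.49 without 4 h replicate 1 (edgeR adjusted p = 0.274, against 0.272 to 0.788 over the 6 livers left out in turn). The coefficient of variation of Myc was 10.3% after 16 h and 82.7% after 4 h.

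Btg2 (chromosome 1, 134075170 to 134079120, minus strand), which encodes an antiproliferative protein that recruits the CCR4-NOT deadenylase, had 9.95, 18.2 and 14.97 CPM after 16 h, against 9.59, 13.4 and 7.67 CPM after 4 h. The groups overlapped, since 16 h replicate 1 lay below 4 h replicate 2. The change did not pass (0.50 ± 0.24, 95% interval -0.049 to 1.04, edgeR adjusted p = 0.186). With each liver left out in turn it ran from 0.30 to 0.74 (edgeR adjusted p 0.0549 to 0.485).

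**Figure D3:**
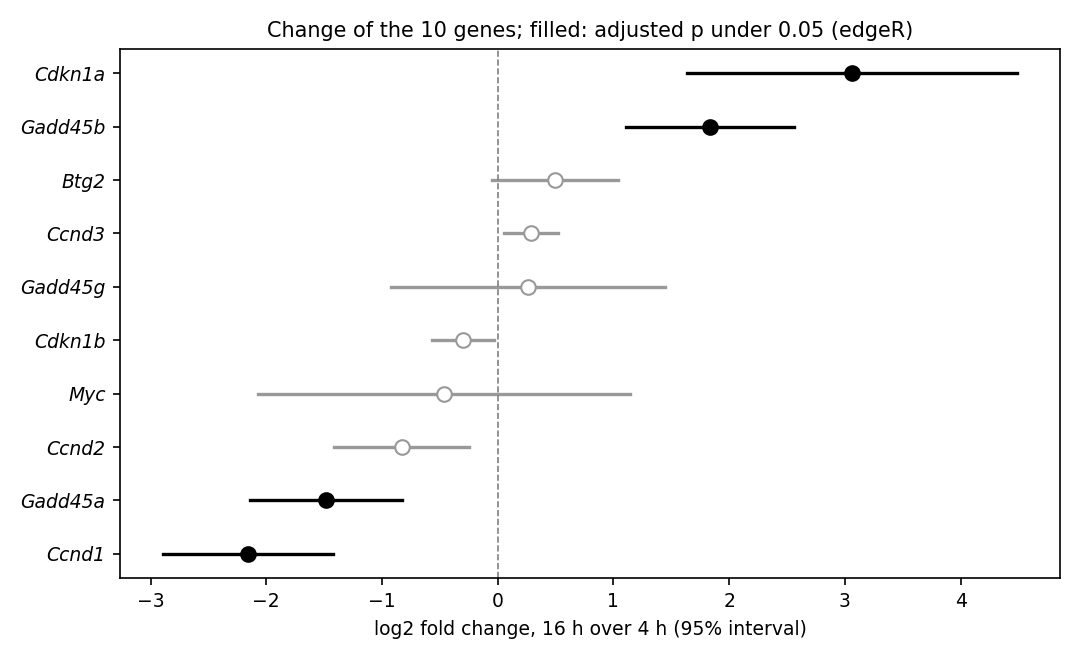
Log2 fold change of 16 h over 4 h (horizontal axis) of the 10 genes in order of size, with 95% intervals from the edgeR fit on 3 livers per group; filled points passed an adjusted p of 0.05. The filled points are Cdkn1a (3.06) and Gadd45b (1.84) on the higher side and Gadd45a (-1.49) and Ccnd1 (-2.16) on the lower side.

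Levels of different genes can be compared only per length. After 16 h the order by mean CPM per kilobase was Gadd45g (43.0 ± 14.0), Cdkn1a (12.1 ± 5.4), Cdkn1b (6.995 ± 0.442), Btg2 (5.25 ± 1.52), Gadd45b (5.19 ± 0.15), Ccnd3 (4.02 ± 0.24), Myc (3.28 ± 0.34), Gadd45a (0.957 ± 0.209), Ccnd1 (0.442 ± 0.160) and Ccnd2 (0.259 ± 0.103). The ranges of mean ± SD overlap for the neighbours from Cdkn1a through Cdkn1b and Btg2 to Gadd45b, and for Ccnd1 and Ccnd2. After 4 h Gadd45g (35.7 ± 19.5) was again first and Ccnd2 (0.466 ± 0.052) again last. Between them came Cdkn1b (8.58 ± 1.19), Myc (4.44 ± 3.67), Btg2 (3.72 ± 1.06), Ccnd3 (3.29 ± 0.20), Gadd45a (2.69 ± 0.98), Ccnd1 (2.001 ± 0.786), Gadd45b (1.47 ± 0.89) and Cdkn1a (1.41 ± 0.82). By the same measure all neighbours from Cdkn1b down to Cdkn1a overlap. Cdkn1a was therefore the second of the 10 per length after 16 h and the ninth after 4 h.

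By the coefficient of variation, 8 of the 10 genes varied more among the livers after 4 h than among those after 16 h, the exceptions being Ccnd2 and Btg2. The same count was not made over all genes. Across all well-counted genes, the pairs with 4 h replicate 3 differed most, with a chi-square per degree of freedom of 76.1 and 53.6. It was 19.6 for the other 4 h pair and 19.0 to 22.7 for the 16 h pairs. By the SD in CPM, Cdkn1a, Ccnd2, Ccnd3 and Btg2 varied more after 16 h. Cdkn1a, Ccnd1, Myc and Gadd45g all had their highest 4 h value in replicate 1 and their lowest in replicate 3, and Gadd45b, Ccnd2 and Ccnd3 had the opposite order. Of all tested genes, 18.3% had the order of the first 4. The ratio of highest to lowest liver after 4 h was 5.72 for Myc, 3.59 for Cdkn1a, 3.08 for Gadd45g and 2.20 for Ccnd1. Of the 12354 tested genes whose 4 h livers averaged 1 CPM or more, 190 (1.54%) had a range of at least 3-fold there, and 35 (0.283%) had it in that order. The order was taken from these genes, and the 3-fold cut lies just under the ratio of Gadd45g. These shares therefore describe the pattern and do not test it. After 16 h the same ratio was 1.22 for Myc, 2.46 for Cdkn1a and 1.81 for Gadd45g. These are 3 livers, so the spread itself was not tested.

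**Figure D4:**
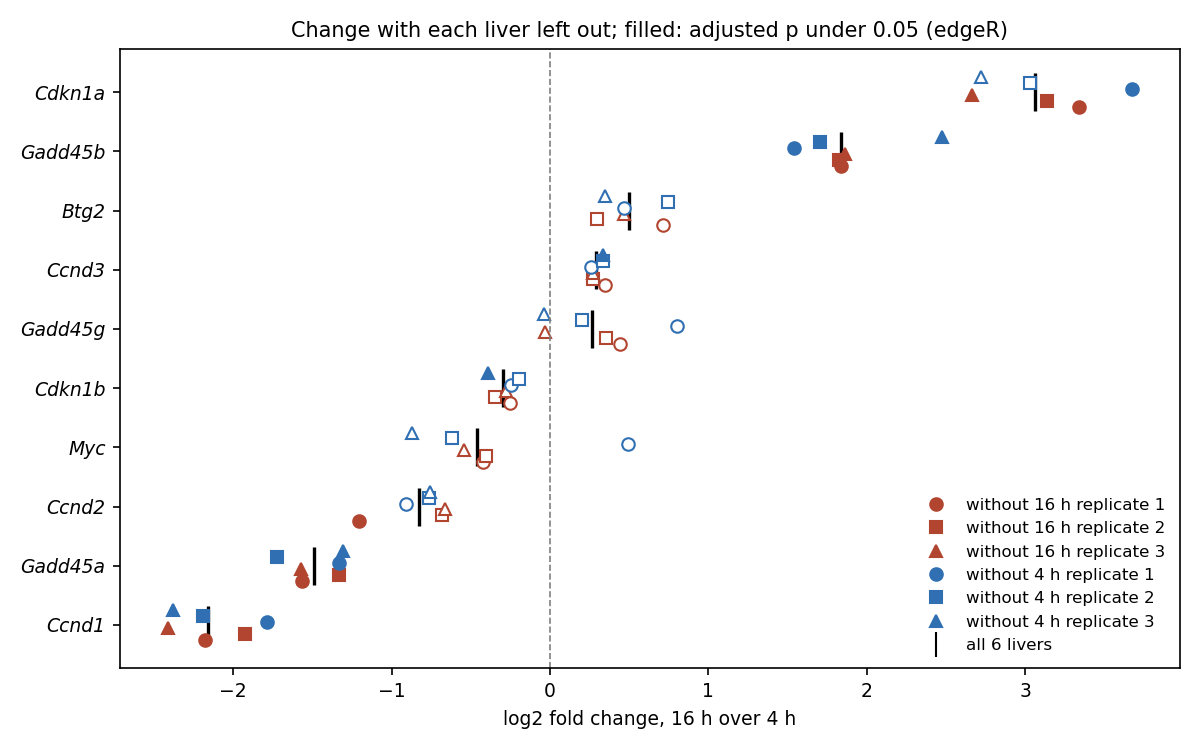
Log2 fold change of 16 h over 4 h (horizontal axis) of each gene with all 6 livers (black line) and with each liver left out in turn (symbols); filled symbols passed an adjusted p of 0.05. Ccnd1, Gadd45a and Gadd45b stay filled throughout, Cdkn1a is open without 4 h replicate 2 or 3, and Myc moves to 0.49 without 4 h replicate 1.

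By the correlation of log2 CPM over the 6 libraries, the genes most like Cdkn1a were Insig2 (r = 0.994), a regulator of sterol sensing, the growth factor gene Fgf1 (0.993) and the splicing regulator Esrp2 (0.993). Those most like Ccnd1 were the carboxylesterase Ces2e (0.995), Hectd3 (0.994) and Limk2 (0.994), those most like Gadd45b were Lmo4 (0.997), Larp1 (0.994) and Nfic (0.994), and those most like Gadd45a were Metap1d (0.990), Mroh2a (0.990) and Tagln2 (0.989). They were the closest of 8829 genes averaging 5 CPM or more, and the share of those genes with r above 0.95 was 3.68% for Cdkn1a, 1.06% for Ccnd1, 0.985% for Gadd45a and 1.29% for Gadd45b. The correlation takes no account of the size of a change. In the order given, the log2 changes were 1.58, 0.86 and 0.30 for the neighbours of Cdkn1a and -0.88, -0.10 and -0.26 for those of Ccnd1. For the neighbours of Gadd45b they were 0.62, 0.35 and 0.25, and for those of Gadd45a -0.28, -0.76 and -0.77. Esrp2, Hectd3, Limk2, Nfic and Metap1d did not pass the test. Insig2, at 466, 564 and 822 CPM after 16 h, against 263, 196 and 160.4 CPM after 4 h, followed Cdkn1a in the order of livers in both groups. Fgf1 did so too. Both were chosen for their correlation with Cdkn1a over these same libraries, so the shared order restates that choice.

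Beyond the 10 genes, few genes of the G1 machinery passed the test. The counts of each list below stand beside 9.18% of all tested genes higher and 9.51% lower. One gene in each list is named for its mean CPM over the 6 libraries, a choice that gene length affects. Of 20 genes for G1 kinases, cyclin E, retinoblastoma proteins and E2F factors, 2 fell, none rose and 18 did not pass. That share of falls is near the share over all genes, and the median log2 change was -0.16 against -0.03 over all tested genes. The 2 were Ccne1, a cyclin that acts after the D-type cyclins (-1.70 ± 0.38, at 0.609 ± 0.206 CPM after 16 h, against 1.94 ± 0.72 CPM after 4 h), and E2f1, named after its values were seen (-1.19 ± 0.23). Ccne1 lost its call without 16 h replicate 3 (edgeR adjusted p = 0.0561). Cdk4, which encodes a D-type cyclin partner, was at 30.7 ± 1.7 CPM after 16 h, against 31.1 ± 2.4 CPM after 4 h (-0.02 ± 0.11), with 19.7% of its exon bases under another gene. The other inhibitors included Cdkn2c at 6.82 ± 0.63 CPM after 16 h, against 6.24 ± 0.49 CPM after 4 h. Of 6 listed, 3 had enough counts to test and none passed by edgeR, at an unadjusted p under 0.05 (33.5% of all genes) or by DESeq2 or limma voom. With no filter on low counts Cdkn3, named after its values were seen, was lower.

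Some genes of DNA replication and mitosis were lower after 16 h. Of 25 listed, 19 were tested, 5 fell, none rose and 14 did not pass (median -0.67), where 9.51% of all tested genes fell. Cdc20, an activator of the anaphase-promoting complex, fell by 1.65 ± 0.52 on the log2 scale, to 0.478 ± 0.277 CPM after 16 h, against 1.503 ± 0.83 CPM after 4 h, a call lost in 5 of the 6 cases in which a liver was left out. It rests on 4, 12 and 13 counts after 16 h and on 32, 38 and 17 counts after 4 h. The other 4 that fell, named after their values were seen, were Mcm3, Mcm6, Rrm2 and Tyms, with calls lost in 4, 5, 3 and 3 of those cases. Tk1 was at 28.7 ± 5.5 CPM after 16 h, against 34.4 ± 5.3 CPM after 4 h and did not pass. The number that fell was 0, 2 and 2 without 16 h replicate 1, 2 and 3 (1 gene rose without replicate 1), and 1, 1 and 8 without 4 h replicate 1, 2 and 3. In bulk liver, fewer cycling cells and less RNA per cell cannot be told apart.

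In the network of MYC partners, rises were called for 3 of 14 genes and a fall for 1, with 10 not passing (median -0.12). Mlxipl, which encodes the carbohydrate-responsive factor ChREBP, fell to 208 ± 10.2 CPM after 16 h, against 527 ± 13.6 CPM after 4 h (-1.34 ± 0.10). Mlxip rose by 0.50 ± 0.16, and Mxi1 and Mxd3, named after their values were seen, encode antagonists of MYC and rose by 0.37 ± 0.12 and 2.0 ± 0.52. Mxd3 was low throughout, at 0.537 ± 0.005 CPM after 16 h, against 0.132 ± 0.023 CPM after 4 h. It had 12, 9 and 13 counts after 16 h, against 3, 2 and 3 counts after 4 h. Only the 16 h livers gave Mxd3 enough counts to test, so its call adds little to the number of rises. None of the 3 rises was called when 4 h replicate 1 or any of the 16 h livers was left out, nor was Mlxip without 4 h replicate 3 or Mxi1 without 4 h replicate 2. Without 4 h replicate 3, 3 genes fell.

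Of the BTG and TOB family, to which Btg2 belongs, 2 of 4 tested genes rose and 2 did not pass (median 0.27). Btg3 rose to 6.74 ± 1.32 CPM after 16 h, against 2.90 ± 0.72 CPM after 4 h (1.23 ± 0.23), with 17.3% of its exon bases under another gene. Btg1, named after its values were seen, rose by 0.55 ± 0.12 and missed the threshold once 16 h replicate 3 was left out (edgeR adjusted p = 0.0507). Tob1 was at 136 ± 14.9 CPM after 16 h, against 137 ± 20.98 CPM after 4 h. Of 5 kinases downstream of the GADD45 proteins, Mapk14, the p38 kinase gene, was the only one to pass (0.40 ± 0.11), and it failed the test whichever of the 16 h livers was left out.

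**Figure D5:**
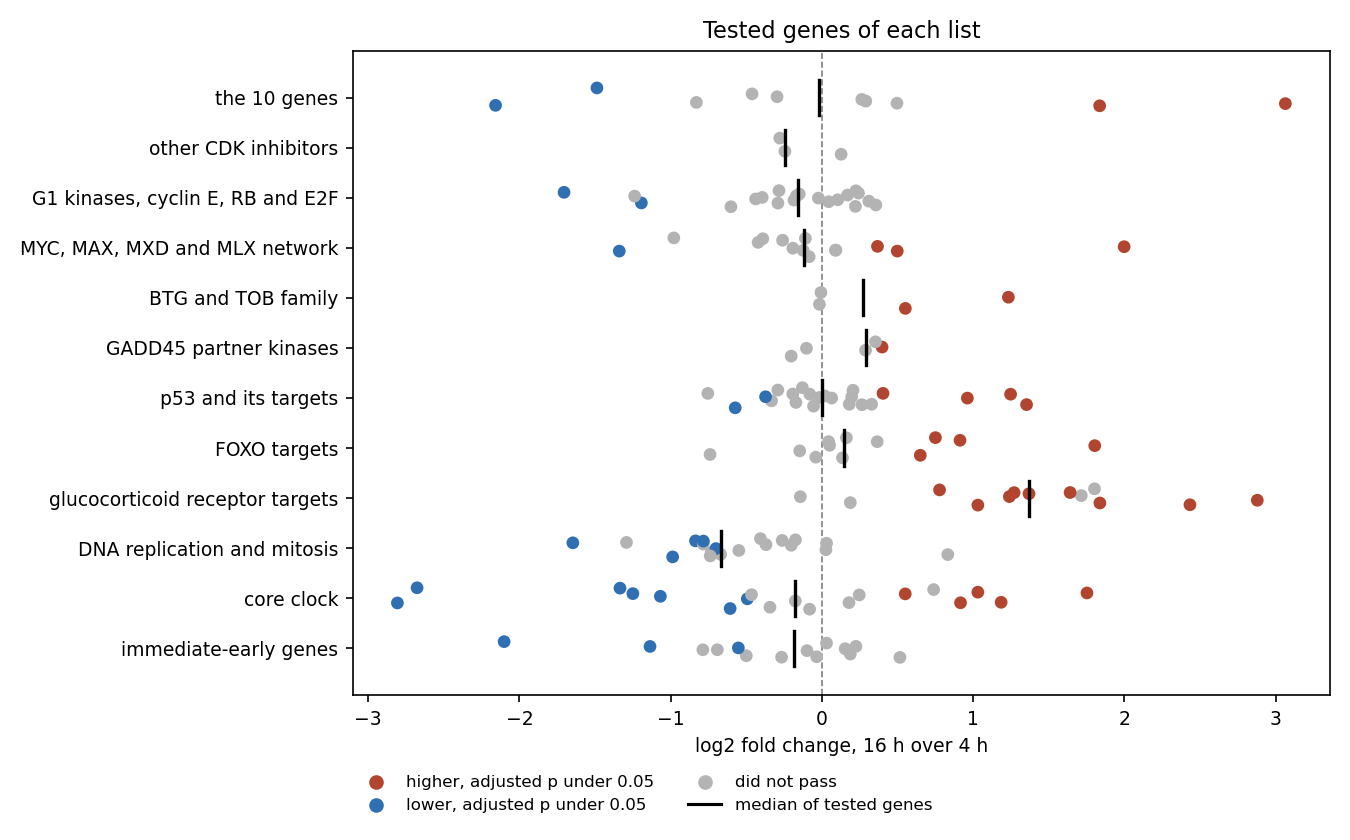
Log2 fold change of 16 h over 4 h (horizontal axis) of every tested gene in the 10 and in 11 lists of related pathways; red points were higher and blue points lower at an adjusted p under 0.05, and black lines give the median. The median is 1.37 for glucocorticoid receptor targets, -0.67 for DNA replication and mitosis and 0.0018 for p53 and its targets.

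The lists of known regulators of Cdkn1a and the GADD45 genes differed in what they showed. The p53 list had 4 rises and 2 falls among its 22 tested genes, 16 did not pass, and the median was near 0. Trp53inp1 rose to 133 ± 22.4 CPM after 16 h, against 52.0 ± 8.6 CPM after 4 h (1.35 ± 0.16), and Ei24 rose by 0.96 ± 0.11. The polo-like kinase gene Plk2 fell by 0.57 ± 0.17, and Trp53 itself, named after its values were seen, by 0.37 ± 0.11. Neither fall was called when 4 h replicate 1 or any of the 16 h livers was left out, nor was Plk2 without 4 h replicate 3 or Trp53 without 4 h replicate 2. The other 2 rises, named after their values were seen, were those of Sesn2 (1.25 ± 0.13) and Mdm2 (0.40 ± 0.11), that of Mdm2 being lost whichever 16 h liver was left out (edgeR adjusted p up to 0.114). The 16 genes that did not pass lay on both sides of 0. Named after their values were seen, Ccng1 (-0.17 ± 0.11) and Phlda3 (-0.75 ± 0.32) lay on the lower side. On the higher side lay Zmat3 (0.065 ± 0.169), Perp (0.20 ± 0.12), Aen (0.27 ± 0.14) and Apaf1 (0.33 ± 0.26), also named after their values were seen.

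Over all tested genes 9.18% rose and 9.51% fell. Targets of FOXO, the factors that insulin holds out of the nucleus, rose in 4 of 12 cases and fell in none (median 0.15). Igfbp1 rose to 238 ± 12.3 CPM after 16 h, against 68.4 ± 23.3 CPM after 4 h (1.80 ± 0.21), while Klf15 did not pass (0.37 ± 0.15). The other 3 that rose, named after their values were seen, were Bnip3, Ccng2 and Irs2. The groups overlapped for Irs2, and its call was lost in 4 of the 6 cases in which a liver was left out (0.54 to 0.95, edgeR adjusted p up to 0.222). Glucocorticoid receptor targets rose in 9 of 13 cases and fell in none, and their median of 1.37 was the highest of the lists. The number higher was 7 without 16 h replicate 3 or 4 h replicate 2, and 10 without replicate 1 of either group. Fkbp5 and Per1, named after their values were seen, lost their calls in 3 and 2 of the 6 cases. Per1 is also on the clock list below. Lcn2 rose to 31.7 ± 7.4 CPM after 16 h, against 4.36 ± 1.35 CPM after 4 h (2.88 ± 0.24), and the tyrosine aminotransferase gene Tat rose by 1.64 ± 0.22. The part of any of these regulators in the change of Cdkn1a, Gadd45b, Ccnd1 or Gadd45a was not tested.

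Clock genes also differed between the groups, with 5 of 19 higher, 7 lower and 7 not passing (median -0.18), against 9.18% higher and 9.51% lower over all tested genes. Arntl, which encodes the activator BMAL1, rose to 18.4 ± 2.3 CPM after 16 h, against 5.48 ± 2.33 CPM after 4 h (1.75 ± 0.27). The repressor gene Bhlhe41 fell by 2.81 ± 0.30 on the log2 scale, with 19.0% of its exon bases under another gene, and Tef did not pass (-0.34 ± 0.17). The other 4 that rose, named after their values were seen, were Clock, Cry1, Nfil3 and Per1, Clock and Per1 each losing the call in 2 of 6 cases, and without 16 h replicate 3 the number higher was 3. The time of day and the length of the fast cannot be told apart where livers of the 2 groups were taken at different clock times, which the sources used here do not give. Of 14 tested immediate-early genes 3 fell and none rose (median -0.18). Egr1 fell to 7.62 ± 0.78 CPM after 16 h, against 33.0 ± 18.6 CPM after 4 h (-2.10 ± 0.40), a call lost without 16 h replicate 2 or 3 or 4 h replicate 3, and Zfp36 did not pass (0.23 ± 0.25). Fos and Klf6, named after their values were seen, were the other two to fall, and each lost its call in 4 of the 6 cases. Without 16 h replicate 2 or 3 none of these genes fell, and without 4 h replicate 2 or 3 only 1 did.

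Markers of other liver cells gave the following beside these results. Of the 10 stellate cell and fibroblast markers 3 fell (Acta2, Col1a1 and Col3a1), and the sum of the list was 147 to 228 CPM after 16 h, against 202 to 304 CPM after 4 h, with Dcn not passing (0.11 ± 0.15). The lymphocyte markers summed to 2.30 to 3.19 CPM after 16 h, against 3.28 to 5.68 CPM after 4 h, with Cd79b among them and none of 2 tested passing. The erythroid markers summed to 53.4 to 99.3 CPM after 16 h, against 148 to 175 CPM after 4 h, where Alas2, the red cell gene for the first step of heme synthesis, fell by 1.09 ± 0.11, with 15.5% of its exon bases under another gene. Kupffer cell markers, Clec4f among them, had 1 of 10 lower (Timd4, lost in 5 of 6 cases), and sinusoidal endothelial markers (Stab1), cholangiocyte markers (Spp1), neutrophil markers (Csf3r) and lung markers (Scgb1a1) had none called. Among the 8 hepatocyte markers 2 rose (Cps1 and Hnf4a) and 3 fell (Ahsg, Fgb and Ttr), of which Ahsg lost its call in 5 of 6 cases and Fgb in 2. No listed marker was at 0 in all 6 libraries. Their part in the falls of Ccnd1 and Gadd45a was not tested.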

How the data were processed

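Liver RNA of 6 mice was sequenced, 3 fasted for 16 h and 3 for 4 h. The authors trimmed reads with Trimmomatic, aligned them with STAR to GRCm38 (mm10) and deposited HTSeq counts per Ensembl gene, per the submitters' processing notes. Their own comparison used DESeq2. The sources used here give no tool version, annotation release or strand setting. The 5 summary lines per table were dropped first. Reads outside genes made up 6.44% to 7.14% and ambiguous reads 5.78% to 6.59% of a library. GENCODE M21 gave names, positions and lengths for 55230 identifiers (99.57%).

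The main test was edgeR 4.0.16 on R 4.3.3 (filterByExpr, TMM, robust quasi-likelihood fit with group as the only term, Benjamini-Hochberg adjustment over 13812 genes). The fit was checked on simulated counts with 200 changed genes, all drawn at 1 common biological coefficient of variation of 14.3%. That check does not cover genes as variable as Cdkn1a, Myc or Gadd45b. DESeq2 1.42.0 and limma 3.58.1 (voom) were alternatives, beside other scalings, filters, a replicate block and leaving out each library. Family shares and levels per length use counts per kilobase of all annotated exons of a gene, which may differ from the transcripts made in liver. Shares were compared with exact 2-sided permutation tests. Named genes are, per pathway list, the largest called rise and fall with 1 CPM or more in the higher group and the gene with the highest mean CPM over the 6 libraries, per marker list only the gene with the highest mean CPM, and for each called gene the 3 of at least 5 CPM with the most similar log2 CPM. The genes and lists were chosen with earlier results of these data known. The shares of the CIP/KIP inhibitors, the order of the 4 h livers and the p53 half-site search were added after values or windows had been seen. Nothing beyond the design text says how the mice were housed or grouped, so any difference in housing between the groups cannot be told apart from the fast. The p-values set the group difference against the spread within the groups of these 6 libraries. A depth of 15173653 to 26572532 counts sets the precision.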

Additional observations from a re-analysis of the deposited data

How the results depend on the processing

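Ccnd1, Gadd45a and Gadd45b kept their direction and call under all 13 alternatives. Cdkn1a kept its direction but not always its call. It was 3.08 with no filter on low counts (edgeR adjusted p = 0.0724) and 3.03 with the replicate block (edgeR adjusted p = 0.108), while its adjusted p over the settings that keep all 6 libraries ran from 7.84e-06 (DESeq2) to 0.108. Ccnd2 passed at -0.80 with no filter, at -0.82 with DESeq2 and at -0.86 with limma voom. Btg2 passed at 0.51 with no filter. The cause was not tested in any of these cases.

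Same-numbered libraries of the 2 groups deviated together only weakly (r = 0.088, 0.093 and 0.045), so the numbers were not taken to pair the mice. Other pairs ran from -0.138 to 0.066. Each 4 h library correlated best with the 16 h library of its number, while 16 h replicate 3 correlated best with 4 h replicate 1 (0.066). These values cannot settle whether the mice were paired. With the replicate block, 1 of the 10 genes was higher, as Cdkn1a lost its call. Over all genes 1352 were then higher and 1396 lower, against 1268 and 1313 without the block.

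With each library left out in turn, the number of genes higher after 16 h ran from 671 to 1594 and lower from 696 to 1393, and of the 10 genes 1 to 2 were higher. The log2 change ran from 2.66 to 3.67 for Cdkn1a, -0.39 to -0.20 for Cdkn1b, -1.20 to -0.66 for Ccnd2 and 0.26 to 0.35 for Ccnd3. It ran from -0.038 to 0.80 for Gadd45g, with -0.030 without 16 h replicate 3 and -0.038 without 4 h replicate 3, and from -0.87 to 0.49 for Myc, with 0.49 without 4 h replicate 1. Fewer libraries also leave fewer degrees of freedom. Ccnd1 and Gadd45a rest on as few as 21 counts in a library, which limits the precision of their levels.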
